A study of Mus musculus with 3 samples.

Results

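The genes described here are the effectors of the Hippo pathway and the target genes by which its output is usually read, 10 genes in all out of 29273 gene names on the array. They were chosen by name: the coactivators Yap1 and Wwtr1 (the gene of the protein called Taz), the DNA-binding factors Tead1 to Tead4, and the target genes Ctgf, Cyr61, Ankrd1 and Amotl2, with Ctgf and Cyr61 also searched under their current symbols Ccn2 and Ccn1. A single probe represented each of 7 of these genes and 2 probes each of the other 3, so 13 of the 41174 probes were members. The cells were EpH4-PR, clones of the mouse mammary epithelial line EpH4 that stably carry the A isoform of the progesterone receptor, kept in medium with 10% FBS until about 75% confluent. RNA from these cells was labeled with Cy5 and compared on 3 Agilent whole mouse genome arrays with a commercial mouse reference RNA, the Stratagene mouse standard, labeled with Cy3. Dyes were never swapped, and no source used here says whether the 3 arrays came from separate cultures, so p-values measure only the spread between arrays. Vector control cells (EpH4-EV) were not analysed here, so each ratio is a level in EpH4-PR cells relative to the reference RNA, not an effect of the receptor.

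In the Hippo pathway a cascade of kinases phosphorylates Yap and Taz, which keeps them in the cytoplasm or sends them to degradation. When the cascade is off, the proteins enter the nucleus, bind Tead factors and raise transcription of genes such as Ctgf and Cyr61. In mammary epithelium the pathway is known for its response to cell density, attachment and tension. Since the control of Yap and Taz is largely at the protein level, mRNA of the effectors and mRNA of their targets are different readouts.

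Tead factors bind the letters GGAATG, or CATTCC when read on the other strand. Promoter windows of 250 bases before the start of transcription (RefSeq, assembly GRCm38.p6) were held for 7 of the 10 genes, and not for Ctgf, Tead1 and Tead4. Those of 3 target genes are printed 5′ to 3′ on the strand of the gene, to show where these letters lie in genes whose levels are given further on. Capitals mark each match. The windows are Cyr61 on the minus strand at chr3:145649986-145650235, Ankrd1 on the minus strand at chr19:36119845-36120094 and Amotl2 on the plus strand at chr9:102717554-102717803.
Cyr61: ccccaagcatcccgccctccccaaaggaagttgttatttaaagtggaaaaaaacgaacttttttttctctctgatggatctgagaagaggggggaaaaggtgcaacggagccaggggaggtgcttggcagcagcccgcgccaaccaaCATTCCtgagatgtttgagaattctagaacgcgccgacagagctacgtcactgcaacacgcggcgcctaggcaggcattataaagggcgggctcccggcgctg
Ankrd1: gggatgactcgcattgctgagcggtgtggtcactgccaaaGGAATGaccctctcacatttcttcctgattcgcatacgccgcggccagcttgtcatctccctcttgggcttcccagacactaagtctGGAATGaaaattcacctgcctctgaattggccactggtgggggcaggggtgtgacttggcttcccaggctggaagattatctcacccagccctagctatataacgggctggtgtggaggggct
Amotl2: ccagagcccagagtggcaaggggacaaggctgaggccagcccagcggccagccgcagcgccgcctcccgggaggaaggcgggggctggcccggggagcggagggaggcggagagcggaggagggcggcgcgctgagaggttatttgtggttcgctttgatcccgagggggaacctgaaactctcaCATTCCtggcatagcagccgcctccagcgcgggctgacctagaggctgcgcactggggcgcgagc
The match in Cyr61 begins 103 bases before the start and that in Amotl2 65 bases before it, while Ankrd1 holds matches 210 and 123 bases before its start. Yap1, Wwtr1 and Tead3 also held a match and Tead2 held none, so the letters, searched on both strands, were found in 6 of the 7 genes and in 8 of their 10 windows, some of which overlap within a gene. Of 32851 such windows of all genes, 12.6% held a match, and 14.4% of the 27025 genes had a match in at least 1 window. A match describes these letters only and is no evidence that the site is bound.

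The labeled cell type was checked with marker genes. Of 6 epithelial markers 5 were higher than the reference, led by the adhesion gene Cdh1 at a log2 ratio of 4.29, and the keratin Krt19 was lower at -2.62. All 9 mesenchymal markers had a probe past both limits on the lower side, such as Vim at -6.51 and Col1a2 at -4.30, although Fn1 (-1.21) rose to 0.13 when arrays were centered on their median in place of loess. Basal markers were mixed, with the keratin Krt14 at 2.08 and probes of Acta2 between -2.81 and 0.60. Of 4 endothelial markers only 1 stood well above background in Cy5 on every array, and the summed Cy5 intensity of that list was 328 to 422. The blood list had a probe for 3 of its 4 genes and a summed Cy5 intensity of 397 to 499. Ptprc was down to -4.50, Cd68 was at -1.84 and Hba-a1 at 0.05. That Ptprc probe was well above background in Cy5 on 0 of the 3 arrays, so its value is only a bound. The progesterone receptor gene Pgr had 2 probes, each well above background in Cy5 on only 1 of the 3 arrays. Median spot intensity was 93.8 to 113 in Cy5 and 108 to 142 in Cy3 over the 3 arrays, and 314 negative control spots, which should bind no RNA, had a median of 57.3 to 74.1 in Cy5 and 91.8 to 121 in Cy3. With 3 arrays the precision of each ratio is limited.

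Relative to the reference RNA, the effectors and Tead factors were mostly near to or above the reference level. For Yap1, Tead1, Tead3, Tead4 and the Tead2 probe A_51_P227739, however, the reference signal lay near that of negative control spots, which limits their ratios. The 2 Wwtr1 probes differed in sign. Of the 4 classical targets, Ctgf and Cyr61 were the lowest of all members. Ctgf was 2.59-fold and Cyr61 1.75-fold lower in EpH4-PR cells than in the reference, while Ankrd1 was 1.27-fold higher and Amotl2 1.21-fold lower. Tead4 and Tead2 had the highest ratios. These directions hold for the ratios after loess, which removes a trend of the ratio with spot intensity; under median centring Cyr61 and Amotl2 rose above 0 and Ctgf came to lie close to 0, as given below for each gene.

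**Figure D1:**
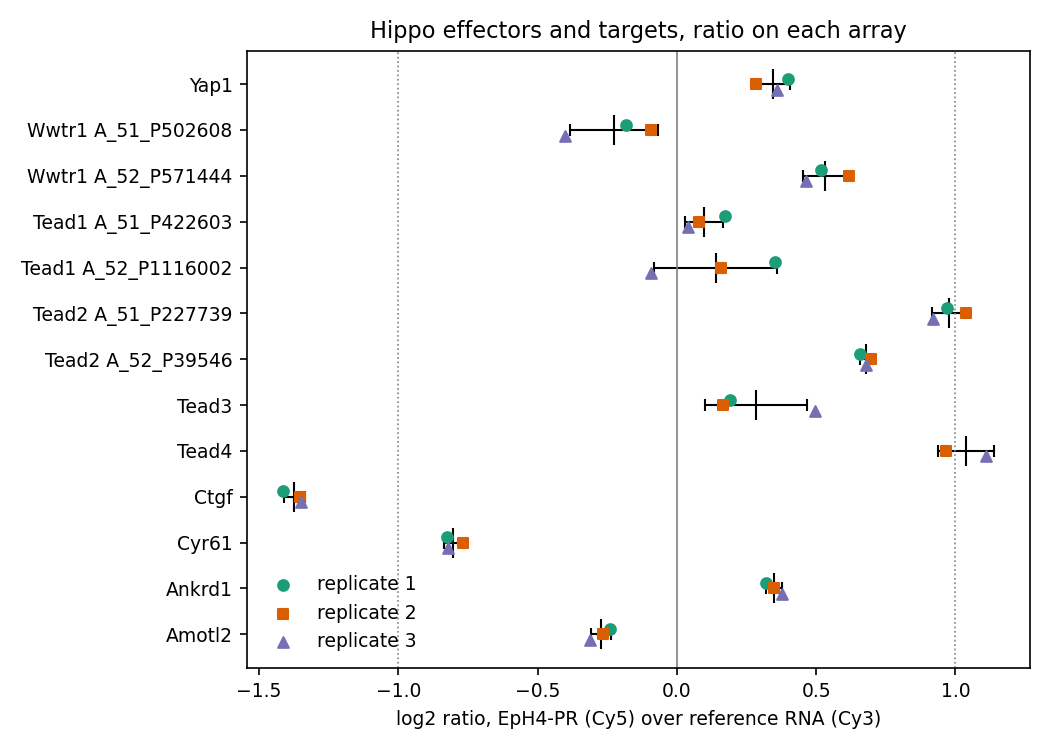
Log2 ratio (horizontal axis, EpH4-PR over the reference) for each of the 13 member probes, with 1 point for each array, the mean as a vertical line and the SD as a bar (n = 3 arrays, and 2 for Tead4). Dotted lines mark a log2 ratio of 1 either way. After loess, Ctgf and Tead4 lie beyond them, with means of -1.37 and 1.04.

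A probe was counted as past both limits when its adjusted p from limma was under 0.05 and its log2 ratio was at least 1 either way. Of the 13 member probes, 1 was past both limits on the higher side (Tead4) and 1 on the lower side (Ctgf), where over all 41174 probes the shares were 2.25% higher (928 probes) and 3.85% lower (1584 probes). With the adjusted p alone, 7 member probes were higher, 4 were lower and 2, both of Tead1, did not pass, against 25.7% higher and 24.6% lower of all probes. So few probes give shares of 7.69% in either direction for a single called probe, and nothing particular to these genes is read from them. The median log2 ratio of the member probes was 0.28, beside -0.01 for all probes, and their median absolute size was 0.35 beside 0.19. The SD between arrays had a median of 0.06 over the members, from 0.02 to 0.22, beside 0.09 over all probes.

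Yap1 encodes the coactivator Yap. Its Cy5 intensity was 224, 226 and 235 on replicates 1, 2 and 3, and its Cy3 intensity was 155, 160 and 129. The log2 ratios were 0.40, 0.28 and 0.36, all above 0. Their mean of 0.35 ± 0.06 (SD, n = 3) had an adjusted p of 0.00280 from limma. On only 1 array was the reference signal of this probe above the 95th percentile of the negative control spots, which its Cy5 signal passed on all 3. Under every alternative the ratio stayed above 0, from 0.27 to 0.87.

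Wwtr1, which encodes Taz, had 2 probes that disagreed. On probe A_51_P502608 the log2 ratios were -0.18, -0.09 and -0.40 on replicates 1, 2 and 3. They averaged -0.23 ± 0.16 (SD, n = 3) with limma's adjusted p at 0.0484. Probe A_52_P571444 gave 0.52, 0.62 and 0.46, which averaged 0.53 ± 0.08 (SD, n = 3) with limma's adjusted p at 0.000779. The difference between the probes, the first minus the second, averaged -0.76 ± 0.09 (SD, n = 3) and had the same sign on every array, so it exceeds the spread between arrays. Both probes were bright in EpH4-PR cells, at 1090 to 1212 and at 665 to 705 in Cy5, and both were well above background in Cy5 and in Cy3 throughout. The first probe's call was fragile: leaving out any 1 array gave ratios of -0.29 to -0.14 and adjusted p-values of 0.0572 to 0.112, and median centring turned it to 1.00. It lost the adjusted p in 10 of 15 alternatives. The second probe was at 1.55 under median centring, and 0.49 was its lowest value in any alternative. No direction for Wwtr1 as a gene is drawn from probes that differ in sign. Another 2 probes listed under the name Taz were not counted, since none of them carries an accession of Wwtr1.

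The 4 Tead factors bring Yap and Taz to DNA. Tead1 was near the floor of the measurement. On its probe A_51_P422603 the Cy3 intensity of 115, 124 and 94.8 was above that of 98, 188 and 217 of the 314 negative control spots on replicates 1, 2 and 3, so its reference level was not separated from spots that bind no RNA. Its Cy5 intensity was 84.8, 89.6 and 69.3, marked as well above the local background but above the 95th percentile of negative control spots on only 2 arrays. The log2 ratios were 0.17, 0.08 and 0.04 for this probe (mean 0.10 ± 0.07, SD, n = 3; adjusted p = 0.153 from limma, and -0.14 under median centring). The other Tead1 probe, A_52_P1116002, was brighter in Cy5 than nearly all negative controls, at 118, 128 and 119. Its log2 ratios of 0.35, 0.16 and -0.09 fell on both sides of 0 (mean 0.14 ± 0.22, SD, n = 3; adjusted p = 0.254 from limma, 95% interval -0.09 to 0.37). Its mean fell to 0.03 without replicate 1 (adjusted p = 0.795 from limma) and was 0.25 without replicate 3 (adjusted p = 0.0323 from limma), and it also passed the adjusted p under median centring (0.20). The value thus rests on which array is left out.

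Tead3 was dim in both channels too. Its Cy5 intensity was 116, 118 and 92.7 and its Cy3 intensity 133, 133 and 89.6. The reference signal was not well above background on replicate 3, where it exceeded 104 of the 314 negative control spots. That array also had the highest log2 ratio, 0.50, against 0.19 and 0.17 on replicates 1 and 2. The mean of 0.28 ± 0.18 (SD, n = 3) had an adjusted p of 0.0334 from limma, which became 0.0600 without replicate 1 and 0.0561 without replicate 2. Without replicate 3 the ratio was 0.18 and still passed (adjusted p = 0.0339 from limma). The ratio of this gene moved with the way of computing it. It was 0.21 without background correction, 0.79 with normexp offset 0 and 1.29 with the log ratio of the scanner software. The latter 2 did not pass (adjusted p = 0.118 and 0.0518 from limma).

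Tead2 was clearly expressed and higher than in the reference. Probe A_51_P227739 had a Cy5 intensity of 398, 408 and 365 and log2 ratios of 0.97, 1.04 and 0.92. Their mean was 0.98 ± 0.06 (SD, n = 3), and limma gave an adjusted p of 8.38e-05. Probe A_52_P39546 had a Cy5 intensity of 890, 803 and 920 and log2 ratios of 0.66, 0.70 and 0.68. The mean here was 0.68 ± 0.02 (SD, n = 3), for which limma gave an adjusted p of 0.000183. All 6 values lay above 0, and in every alternative both probes stayed above 0 with an adjusted p of at most 0.0161. They differed by 0.30 ± 0.05 (SD, n = 3) on the log2 scale, with A_51_P227739 higher on every array. Its reference signal passed the 95th percentile of the negative controls on 1 array only, against all 3 for the other probe. Over the alternatives the log2 ratio ran from 0.82 to 1.70 for A_51_P227739 and from 0.64 to 1.75 for A_52_P39546, with the highest values under median centring.

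Tead4 was the 1 member past both limits on the higher side, on 2 arrays. On replicate 1 its spot was marked as an outlier and left out, with a Cy5 intensity of 2223 against 288 and 267 on replicates 2 and 3, and a Cy3 intensity of 489 against 137 and 102. The log2 ratios on replicates 2 and 3 were 0.97 and 1.11. These average 1.04 ± 0.10 (SD, n = 2), with limma's adjusted p at 0.000645. On these arrays the reference signal exceeded 286 and 287 of the 314 negative control spots and did not reach their 95th percentile. With the outlier spot kept the ratio was 0.98, inside the limit of 1, so the count of higher member probes fell to 0. It was 1.88 with normexp offset 0 and 2.66 in the log ratio that the scanner software gives. The direction was above 0 in every alternative, and the place relative to the limit of 1 was not settled.

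**Figure D2:**
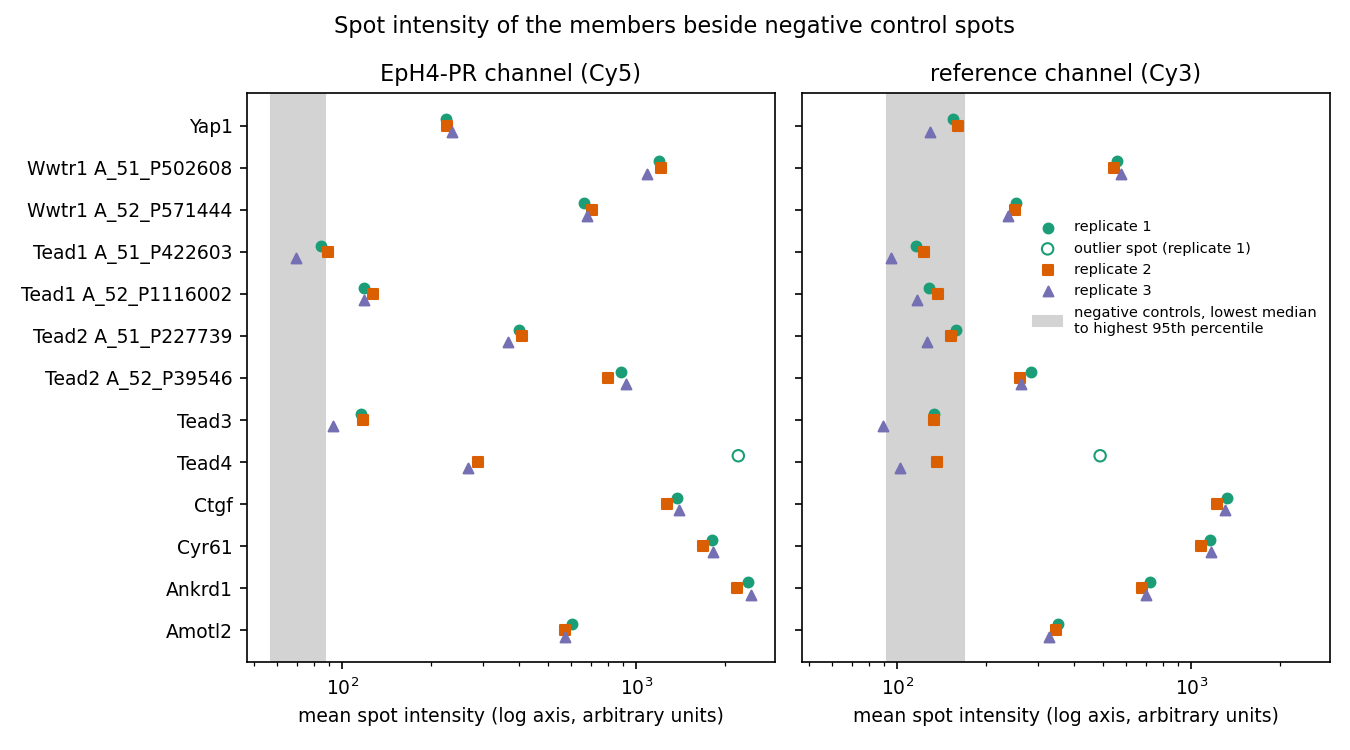
Mean spot intensity of each member probe on the 3 arrays (log axis), in the EpH4-PR channel on the left and the reference channel on the right, beside a gray band from the lowest median to the highest 95th percentile of negative control spots. In the reference channel the probes of Tead1, Tead3 and Yap1, the first Tead2 probe and Tead4 on replicates 2 and 3 lie in or next to the band, and the open circle is the Tead4 outlier spot at 2223 and 489. Intensities of different probes are not comparable as levels.

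The target genes passed the 95th percentile of the negative control spots in both channels on every array, with no saturated spot. Ctgf encodes a secreted matricellular protein and is the target most often used to read Yap activity. Its Cy5 intensity was 1377, 1269 and 1397 on replicates 1, 2 and 3, nearly equal to its Cy3 intensity of 1323, 1226 and 1299. Over the 25721 probes well above background in Cy5 and in Cy3 on every array, the median ratio was 0.42 after median centring and 0.04 after loess, and after loess the log2 ratios of Ctgf were -1.41, -1.35 and -1.35. Their mean of -1.37 ± 0.04 (SD, n = 3) had an adjusted p of 3.08e-05 from limma and lay at percentile 2.19 of all probes. Leaving out any array did not change this call. Under median centring the ratio was -0.05 (adjusted p = 0.353 from limma) at percentile 47.9. Both the call of Ctgf as lower and the size of its difference thus rest on the intensity correction.

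Cyr61 encodes another secreted protein of the same family as Ctgf. Its Cy5 intensity was 1806, 1680 and 1822 and its Cy3 intensity 1153, 1080 and 1167. The log2 ratios of -0.82, -0.77 and -0.82 were all below 0, averaging -0.80 ± 0.03 (SD, n = 3), and limma's adjusted p was 0.000116. The ratio was 0.53 under median centring, on the other side of 0, and -0.88 in the ratio of the scanner software.

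Amotl2 encodes an angiomotin-like protein that binds Yap and restrains it, and is itself a Yap target. Cy5 intensities of 602, 572 and 572 came with log2 ratios of -0.24, -0.26 and -0.31. The mean was -0.27 ± 0.04 (SD, n = 3; adjusted p = 0.00519 from limma), and 0.78 under median centring. Ankrd1 encodes an ankyrin repeat protein that acts with transcription factors and is induced by stretch in muscle. Cy5 intensities were 2401, 2192 and 2451, and the log2 ratios of 0.32, 0.35 and 0.38 were all above 0. The mean was 0.35 ± 0.03 (SD, n = 3; adjusted p = 0.00195 from limma), and it stayed above 0 in every alternative, between 0.34 and 1.67.

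The 4 targets kept 1 order of ratios, Ctgf below Cyr61 below Amotl2 below Ankrd1, on all 3 arrays and in all 9 ways of computing the ratio, median centring among them. After loess, Cyr61 lay above Ctgf by 0.57 ± 0.03 and Amotl2 above Cyr61 by 0.53 ± 0.04 (log2 scale, SD, n = 3), so these steps exceed the spread between arrays. Under median centring Ctgf, Cyr61 and Amotl2 were at -0.05, 0.53 and 0.78, so the step from Cyr61 to Amotl2 was smaller there. Settings that disagreed on the side of 0 for Cyr61 and Amotl2 thus shared this order. Ctgf had the lowest ratio of all member probes in 8 of the 9 ways, and the exception was median centring, where the dim Tead1 probe A_51_P422603 was lower. Among all members several neighbours in the order could not be separated, with differences under their spread: Amotl2 and the first Wwtr1 probe, both Tead1 probes, the second Tead1 probe with Tead3, Tead3 with Yap1, Yap1 with Ankrd1 (0.00 ± 0.07), and the higher Tead2 probe with Tead4. Mesenchymal markers were far lower in EpH4-PR cells than in the reference, as given above, and Ctgf and Cyr61 are also made by fibroblasts; whether the mix of cells behind the reference RNA has a part in their ratios was not tested. Fewer cells that express a gene and less RNA in each cell cannot be told apart here.

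**Figure D3:**
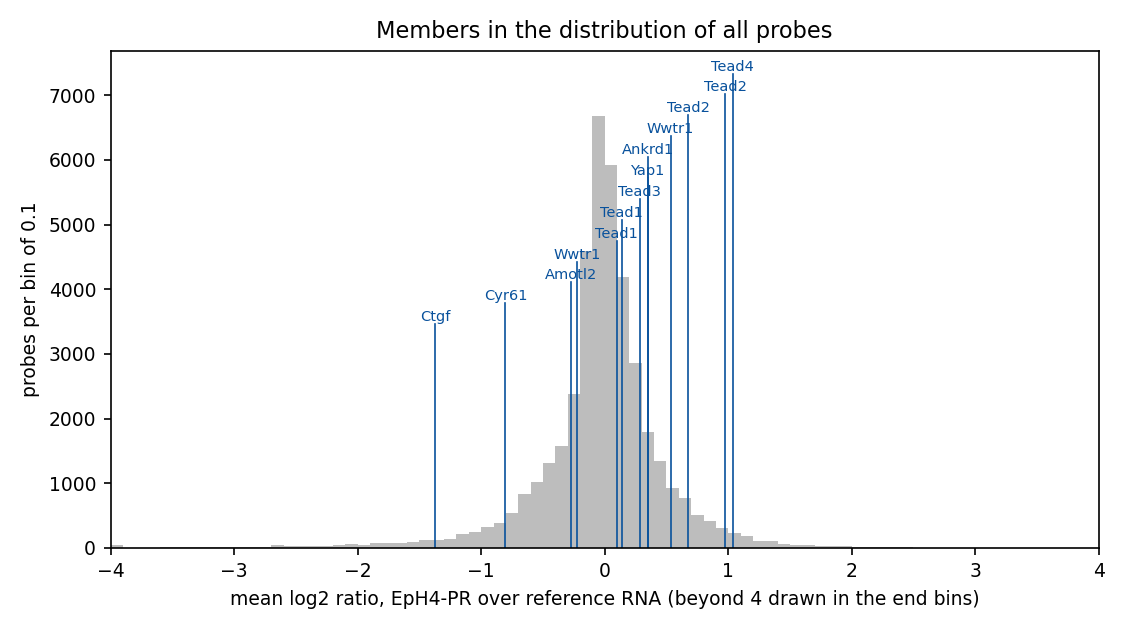
Number of probes (vertical axis) in bins of the mean log2 ratio to the reference (horizontal axis, loess), with lines at the 13 member probes. Ctgf at -1.37 and Tead4 at 1.04 lie in the tails, at percentiles 2.19 and 97.9 of all probes, while most members lie within the bulk. Line heights only separate the names.

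**Figure D4:**
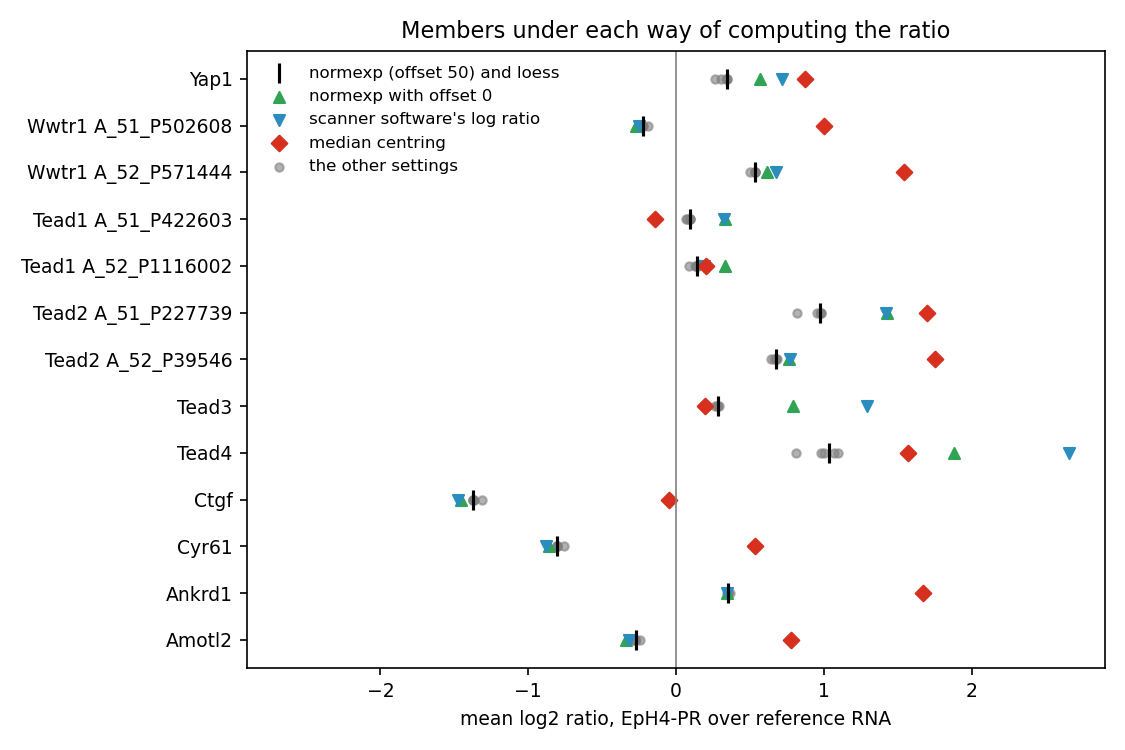
Mean log2 ratio of each member probe (horizontal axis) under loess after normexp offset 50 (black line), normexp offset 0, the ratio of the scanner software, median centring and the other settings. Median centring moves the bright probes to the right, taking Cyr61 to 0.53, Amotl2 to 0.78 and the first Wwtr1 probe to 1.00, and the dim Tead1 probe to -0.14; the scanner software's ratio moves the dim Tead3 and Tead4 to 1.29 and 2.66.

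Genes that act above the effectors were taken from lists. Among 15 core kinases and scaffolds, 3 genes had a probe past both limits on the higher side and 0 on the lower. Nf2, whose product merlin activates the kinases at the membrane, was higher on both of its probes, at 1.78 ± 0.02 and 1.12 ± 0.07 (log2, SD, n = 3; adjusted p = 1.90e-05 and 6.73e-05 from limma). Its partner Wwc1, the gene of Kibra, was at 1.66 ± 0.19 (SD, n = 3; adjusted p = 8.64e-05 from limma). Map4k4, a kinase that can act in parallel to the Mst kinases, was past both limits on 1 of its 3 probes, at 1.29 ± 0.01, with the others at 0.20 and 0.15. Each of these called probes stayed above 0 in all 9 ways of computing the ratio. The kinases of the cascade themselves, Stk3, Stk4, Lats1 and Lats2, had no probe past both limits, with Lats2 probes between -0.57 and 0.31. By the adjusted p alone, 8 core genes had probes only on the higher side, 3 only on the lower side, 2 on both sides and 2 on neither, beside 25.7% higher and 24.6% lower of all probes. The list's probes had a median log2 ratio of 0.17. These shares are per gene, and genes with several probes have more chances to pass than the single probes behind the 2.25% and 3.85% of all probes.

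Of 17 other regulators of Yap, Taz or the cascade, 0 were past both limits in limma's test on either side, beside 2.25% higher and 3.85% lower of all probes, with log2 ratios of their probes between -0.76 and 0.97. By the adjusted p alone, 10 of the 17 genes were higher, 5 lower and 2 on neither side, beside 25.7% and 24.6% of all probes, and the median of the list's probes was 0.17. These counts are again per gene, and a gene with several probes has more chances to pass than a single probe. With normexp offset 0 and in the ratio of the scanner software alike, 4 of these genes were past both limits on the higher side and 1 on the lower. Of all probes, 7.57% were then higher and 9.49% lower with normexp offset 0, and 8.78% and 9.44% in the scanner software's ratio.

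Another 19 known targets of Yap and Taz lay on both sides of the reference. Of these, 3 genes were past both limits on the higher side and 3 on the lower, beside the 2.25% and 3.85% of all probes. The higher ones were Nt5e, an ectoenzyme that makes adenosine, at 1.34 ± 0.09 on 1 of 2 probes, Crim1 at 1.09 ± 0.07 on 1 of 2 probes, and the matrix glycoprotein gene Thbs1 at 1.08 ± 0.07 and 1.05 ± 0.16 on 2 of 4 probes (log2, SD, n = 3). The lower ones were Ccdc80 at -2.86 ± 0.14, the transcription factor gene Foxf2 at -2.58 ± 0.14 and the stress response gene Gadd45a at -1.31 ± 0.05 (log2, SD, n = 3), with Gadd45a at -0.02 under median centring. Ccdc80 and Foxf2 were dim in Cy5, at 125 to 146 and 102 to 117, beside 95th percentiles of the negative controls of 62.9 to 87.4. Over the 9 ways of computing the ratio they ran from -3.75 to -2.03 and from -3.77 to -1.91. By the adjusted p alone 11 of the 19 were higher, 7 lower and 1 on neither side, beside 25.7% and 24.6% of all probes, and the median was 0.26. Here too the counts are per gene, and several probes give a gene more chances to pass. After loess, the targets Ctgf and Gadd45a therefore lay below the reference while the targets Ankrd1 and Thbs1 lay above it. Under median centring Ctgf and Gadd45a came close to 0 (-0.05 and -0.02), while Ccdc80 and Foxf2 stayed lower (-2.03 and -1.91). There 11 of the 19 were past both limits on the higher side and 2 on the lower, beside 17.1% and 1.72% of all probes. No direction shared by all targets was measured in either setting.

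**Figure D5:**
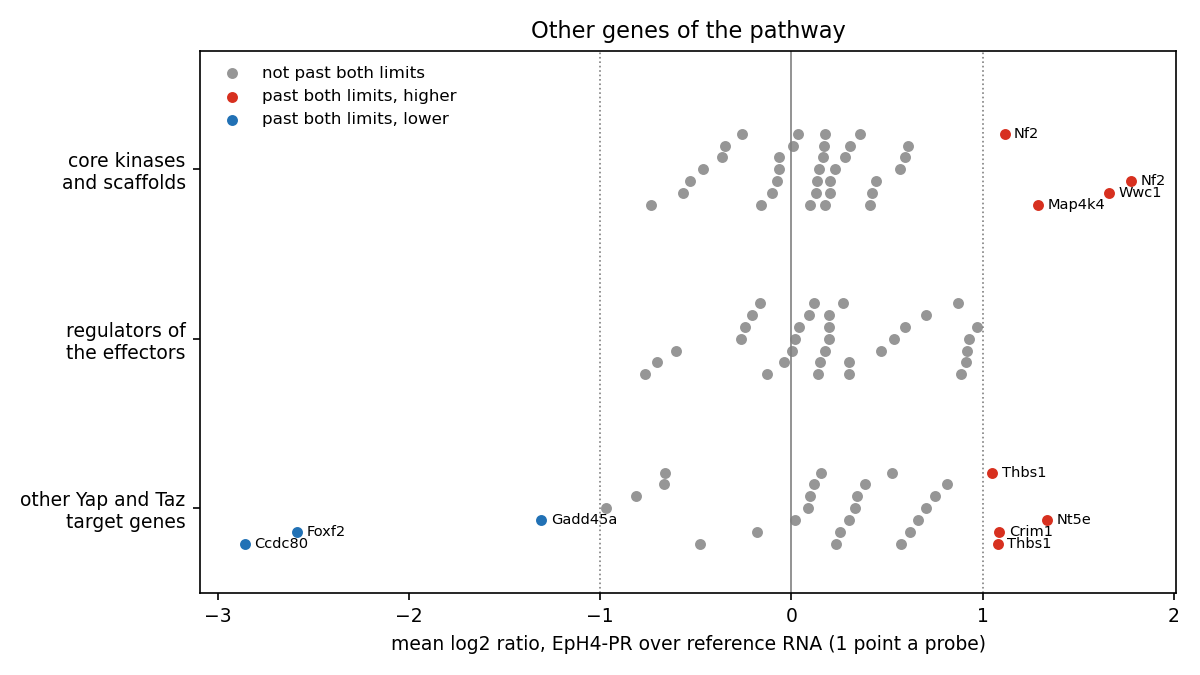
Mean log2 ratio to the reference (horizontal axis, loess) for every probe of the 3 lists, 1 point a probe, with probes past both limits in color and named. The core list has 4 called probes, all higher and of 3 genes, the regulators have 0, and the other targets have 4 higher and 3 lower; points are offset vertically for display.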

How the data were processed

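Two-color arrays (n = 3) of EpH4-PR RNA were used, numbered as replicates 1 to 3 by their labels. The authors deposited output of Agilent Feature Extraction 8.1.1.1 for each array, with the intensity of every spot and of its local background in both channels, flags and a log10 ratio. A deposited table that holds the authors' own comparison only was not used. In R 4.3.3 with limma 3.58.1, mean intensities were corrected with normexp (offset 50) and normalized by loess within arrays with control spots at weight 0. Outlier spots (150, 18 and 3) and control spots were left out, spots of a probe averaged, and log2 ratios tested against 0 with lmFit and eBayes, with Benjamini-Hochberg adjustment over 41174 probes. Saturated or dim probes were kept. On simulated arrays of this comparison 100% of 200 probes changed by 1.5 log2 units were recovered, with 0 false calls. The changed probes were all bright in Cy3 and rose and fell in equal number, and simulated noise lay below the median SD between arrays. Recovery therefore does not cover dim probes and does not decide between loess and median centring. List genes were matched by name or RefSeq accession (21445 of 23705 probes with one matched). Named list genes are the highest and lowest past both limits that were well above background. Some list genes are not reported here and enter no list count. Member genes, lists, tests and alternatives were chosen with earlier results of these data known. Promoters were read with Python 3.11.15. Apart from the promoter windows, gene positions are left out because no build is named in the array files.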

Additional observations from a re-analysis of the deposited data

How the results depend on the processing

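Median centring in place of loess was the only setting under which a member ratio changed sign. It reversed Cyr61 to 0.53, Amotl2 to 0.78, the Wwtr1 probe A_51_P502608 to 1.00 and the Tead1 probe A_51_P422603 to -0.14, and it changed the calls over all probes from 928 higher and 1584 lower to 7029 and 709, so that 90.8% of the calls were higher in place of 36.9%. Under it 6 member probes were past both limits on the higher side and 0 on the lower. The lists then had 8 core genes, 11 regulators and 11 other targets higher, with 2 other targets lower. Of all probes, 17.1% were higher and 1.72% lower under median centring. The median of the 25721 probes that stood well above background in Cy5 and in Cy3 on every array moved from 0.04 to 0.42 and that of the member probes from 0.28 to 0.87. With normexp offset 0 the calls were 3115 higher and 3909 lower, and in the ratio of the scanner software 3616 and 3887. In either case 2 member probes were higher, the regulators had 4 higher and 1 lower, and the other targets 5 higher and 6 lower. Shares over all probes were 7.57% higher and 9.49% lower with normexp offset 0, and 8.78% and 9.44% in the scanner software's ratio. The count of higher member probes was 0 with outlier spots kept and without background correction. With an ordinary t-test of each probe's log2 ratios against 0 in place of limma, it was 0 after adjustment and 1 before adjustment. By that t-test 925 probes were higher and 1583 lower before adjustment, and 893 and 1552 after it. Of the member ratios, those of Yap1, Ankrd1, both Tead2 probes and the Wwtr1 probe A_52_P571444 kept their direction and their side of the adjusted p threshold in all 15 alternatives. Using the negative control spots as background, an alternative chosen after seeing the data, left every member on the same side. No paired analysis was possible because the arrays form a single group. An offset of 0 by construction leaves dim ratios less compressed, and otherwise the cause of these changes was not tested. Signal over negative control spots limits Yap1, Tead1, Tead3, Tead4 and the Tead2 probe A_51_P227739 in the reference channel.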
